A study of Arabidopsis thaliana with 8 samples.

Results

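Class III peroxidases are secreted plant enzymes that use hydrogen peroxide in the cell wall. They can couple phenolic compounds into lignin and suberin and cross-link wall proteins, which stiffens the wall, and they can also form or consume reactive oxygen species, which in other settings loosens it. They form a large gene family in Arabidopsis, and members are known to answer to wall damage, pathogens and metal stress. The genes described here are 34 of 60 listed loci of this family, out of 13648 probe sets tested in all. A locus was taken where the array annotation gives at least 1 probe set to that gene alone and where that probe set lay in the upper 60% by mean log2 intensity over all arrays. Of the 60 loci, 43 had such a probe set, each exactly 1, and 9 of these lay below the intensity limit. The other 17 loci had none and were not analysed here, among them PER64, RCI3, RHS18, RHS19, PRXCA and PRXCB. Just inside the limit lay AT4G26010, with a mean log2 of 5.28, and just outside it AT2G39040, with 5.10. All 60 loci are in the RefSeq gene table, but its symbols or synonyms name only 13 of them as peroxidases, 6 of these among the 34, so the rest are called by locus and given no role.

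RNA was taken from whole dark-grown *Arabidopsis thaliana* seedlings, 7 days old, grown in foil on modified Hoagland medium and harvested under dim green light. The 4 groups were wild type on control medium (1 µM zinc), wild type on high zinc (100 µM), the mutant dez on control medium and dez on high zinc, with 2 biological replicates of about 45 pooled seedlings each. Each sample was read on 1 Affymetrix ATH1 array, and with 8 arrays in all the precision is limited by their number. The dez mutation affects TRICHOME BIREFRINGENCE (TBR), as known from work on this mutant, a gene of the wall polysaccharide acetylation family. TBR lay between 112.4 and 168.5 on all 8 arrays. The kind of lesion was not stated in the labels, so this level says nothing about whether the genotypes are labelled correctly. Samples are whole seedlings, so fewer cells of a type and less RNA per cell cannot be told apart. None of 8 root hair markers and none of 7 xylem markers was among the tested probe sets (2 and 0 of them had a probe set of 1 gene), so neither the tissue label nor the share of these cell types was checked.

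RNA controls differed between the groups, with the dez arrays on high zinc at one end and those of dez on control medium next for the 25S control and the spikes. Control probe sets for actin and GAPDH read the 3' end higher than the 5' end, and this gap, which grows as RNA degrades, was 1.21 and 1.19 (log2) in dez on high zinc and between 1.36 and 1.99 on the other 6 arrays. The 25S ribosomal RNA control was 8.79 and 10.5 (log2) in dez on high zinc and between 5.49 and 8.52 elsewhere. The mean log2 intensity of the poly-A spike controls was 6.94 and 6.61 in that group and between 7.09 and 7.91 elsewhere. Their part in the peroxidase results was not tested, but each comparison was also computed with the 3'-5' difference as a covariate and with arrays scaled to the spikes.

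Peroxidase transcripts reached their highest level in dez on high zinc more often than in any other group. The group mean was highest there for 19 of the 34 genes, against 41% of all tested probe sets, in wild type on high zinc for 9, in dez on control medium for 4 and in wild type on control medium for 2. For 17 genes both dez arrays on high zinc lay above all 6 others, and for 4, AT1G71695, AT2G34060, AT2G37130 and AT5G66390, both lay below; among all tested probe sets these shares were 26.9% and 23.9%. PRX52, AT1G30870, AT4G26010 and AT5G64110 passed the intensity limit only through those arrays, so they had to be high there, and the counts over the 34 genes describe the genes that passed and not the whole family. The heat map of log2 differences shows every gene in every comparison.

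**Figure D1:**
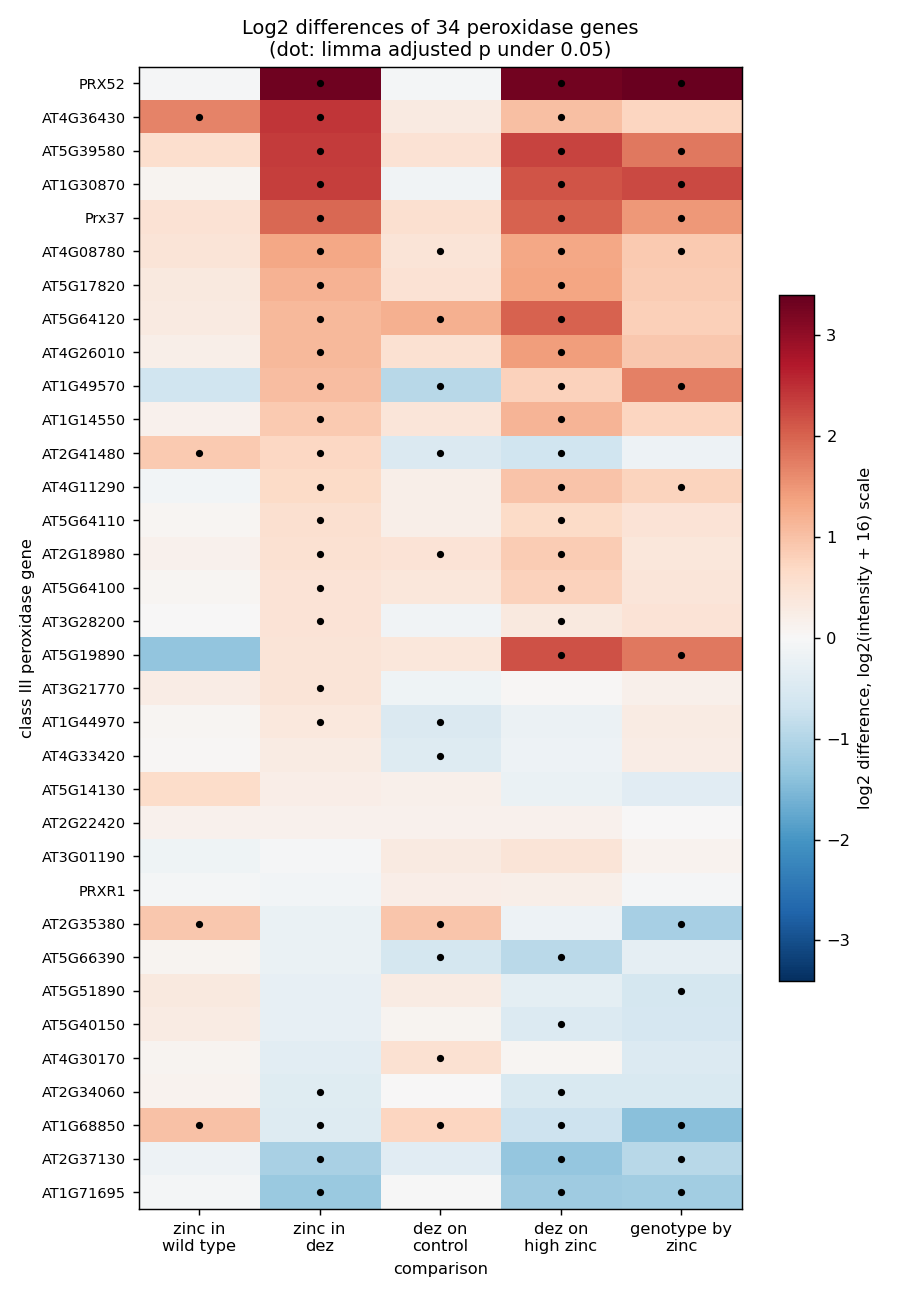
Log2 differences of the 34 peroxidase genes (rows, sorted by the effect of zinc in dez) in the 5 comparisons (columns), on the log2(intensity + 16) scale, with a dot where the limma adjusted p was below 0.05. The column for zinc in dez holds 19 rises and 4 falls, and the column for zinc in wild type holds 4 rises.

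High zinc raised 4 peroxidase genes in wild-type seedlings and lowered none past the threshold (limma adjusted p below 0.05, Benjamini-Hochberg over all tested probe sets). Among all tested probe sets 0.703% were called in this comparison and 0.462% were higher. Groups did not overlap for 17 of the 34, 15 higher and 2 lower, against 37.8% of all tested probe sets. The median log2 difference of the 34 genes was 0.13, against 0.00 for all tested probe sets. Differences here and below are on the log2(intensity + 16) scale, which understates changes of dim genes.

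AT4G36430 had intensities of 70.2 and 113 on control medium and 305 and 346 on high zinc in wild type. Both high-zinc arrays lay well above both controls, and the gene rose by 1.69 ± 0.22 (log2, SE, limma adjusted p = 0.00898), the 7th largest rise of all tested probe sets. AT1G68850 read 26.9 and 29.5 on control medium and 84.4 and 60.5 on high zinc, a rise of 0.99 ± 0.13 (limma adjusted p = 0.00935). AT2G35380 read 37.5 and 44.2, then 97.6 and 84.1, a rise of 0.91 ± 0.12 (limma adjusted p = 0.00916). In both, the 2 groups were clearly apart. AT2G41480, or PRX25, an enzyme known to contribute to stem lignin, read 131 and 147, then 252 and 288, a rise of 0.88 ± 0.12 (limma adjusted p = 0.0113). Without wild-type high-Zn replicate 2 its adjusted p was 0.0598.

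When the dez arrays were left out of the fit, AT4G36430 alone of these kept its call (limma adjusted p = 0.0274), and the same held under spike scaling. The largest differences that missed the threshold were those of AT5G19890, at -1.35 ± 0.28 (limma adjusted p = 0.0681), and AT1G49570, at -0.68 ± 0.15 (adjusted p = 0.0916). AT5G19890 read 287 and 154 on control medium and 98.4 and 53.2 on high zinc, so its replicates lay far apart in both groups.

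In dez, high zinc moved most of the 34 genes. Of the 34 genes 19 rose, 4 fell and 11 did not pass, where 34.0% of all tested probe sets passed, 16.6% higher and 17.4% lower. The median log2 difference was 0.46, against 0.01 for all tested probe sets, and 12 genes changed by more than 1 on the log2 scale, against 5.91% of all. Of the 30 genes that passed the intensity limit without the dez high-zinc arrays, 15 rose and 4 fell, with a median of 0.394. Among the 12 genes, PRX52, AT1G30870 and AT4G26010 passed that limit only through those arrays. Groups did not overlap for 31 of the 34 genes, while 71.6% of all tested probe sets were apart in this way.

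Among the peroxidases with a known role, PRX52 (AT5G05340), which contributes to lignin in stems, read 7.23 and 6.12 in dez on control medium and 149 and 294 on high zinc. On the 4 wild-type arrays it read between 6.65 and 9.14. Only the 2 dez arrays on high zinc showed a raised signal, and they differed from each other by 0.91 on the log2 scale. The rise in dez was 3.32 ± 0.22 (log2, SE, limma adjusted p = 3.09e-06), the 13th largest of all tested probe sets. Its size and rank depend on the pseudocount, since the other 6 arrays read only between 6.12 and 9.14. With 64 in place of 16 the rise was 1.97, below those of AT5G39580 (2.07) and AT4G36430 (2.06). Prx37 (AT4G08770), known to restrict growth when overexpressed, read 135 and 134, then 617 and 521, a rise of 1.95 ± 0.16 (limma adjusted p = 1.33e-05). PRX71 (AT5G64120), known to be induced by wall damage and to limit cell growth, read 1424 and 1260 on control medium and 3270 and 2606 on high zinc, a rise of 1.11 ± 0.28 (limma adjusted p = 0.0114). That call was lost without dez control replicate 2 and without dez high-Zn replicate 1, with adjusted p = 0.0667 and 0.103.

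PRX25 rose in dez too, from 91.3 and 95.7 to 176 and 148, by 0.70 ± 0.12 (log2, limma adjusted p = 0.00154), and it is one of 2 genes, with AT4G36430, that rose with zinc in both genotypes. PRX72 (AT5G66390), a lignin-forming peroxidase, read 221 and 229 on control medium and 184 and 195 on high zinc. Its groups were apart, but the difference of -0.23 ± 0.11 did not pass (limma adjusted p = 0.138). PRXR1 (AT4G21960), given no role here, read 2247 and 2740.1 in control wild type, 2489 and 2265 in high-zinc wild type, 2557 and 3328 in control dez and 2819 and 2647 in high-zinc dez. Its groups were close, and it passed in no comparison.

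Among the peroxidases given by locus only, AT4G36430 read 126 and 103, then 548 and 839, a rise of 2.42 ± 0.22 (limma adjusted p = 2.35e-05). AT5G39580 read 145 and 129.5, then 749 and 812, a rise of 2.38 ± 0.21 (limma adjusted p = 1.88e-05). AT1G30870 read 11.7 and 13.6, then 86.6 and 189, a rise of 2.34 ± 0.24 (limma adjusted p = 5.85e-05). In all 3 both high-zinc arrays were above every other array of the study, although the replicates of AT1G30870 differed by 1.00 on the log2 scale and its rise was 1.35 with a pseudocount of 64. AT4G08780 rose by 1.33 ± 0.10, from 31.3 and 30.8 to 102.0 and 101.9. The other 11 rises lay between 0.36 for AT1G44970 and 1.18 for AT5G17820 and included AT4G26010 (1.11), AT1G49570 (1.04), AT1G14550 (0.88) and AT4G11290 (0.66).

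The 4 falls were led by AT1G71695, which read 261 and 257 on control medium and 94.3 and 104 on high zinc, a log2 difference of -1.26 ± 0.11 (limma adjusted p = 2.24e-05). AT2G37130 read 2150 and 2230, then 1019 and 988, a difference of -1.11 ± 0.11 (limma adjusted p = 3.65e-05). In both genes the dez arrays on high zinc were the lowest of all 8, and the replicates of each group were close. AT1G68850 read 53.1 and 60.5, then 38.1 and 36.8, a difference of -0.44 ± 0.13 (limma adjusted p = 0.025), and AT2G34060 had one of -0.41 ± 0.12. These 2 smaller falls were lost with the 3'-5' covariate, under spike scaling and without any one of the 4 dez arrays.

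**Figure D2:**
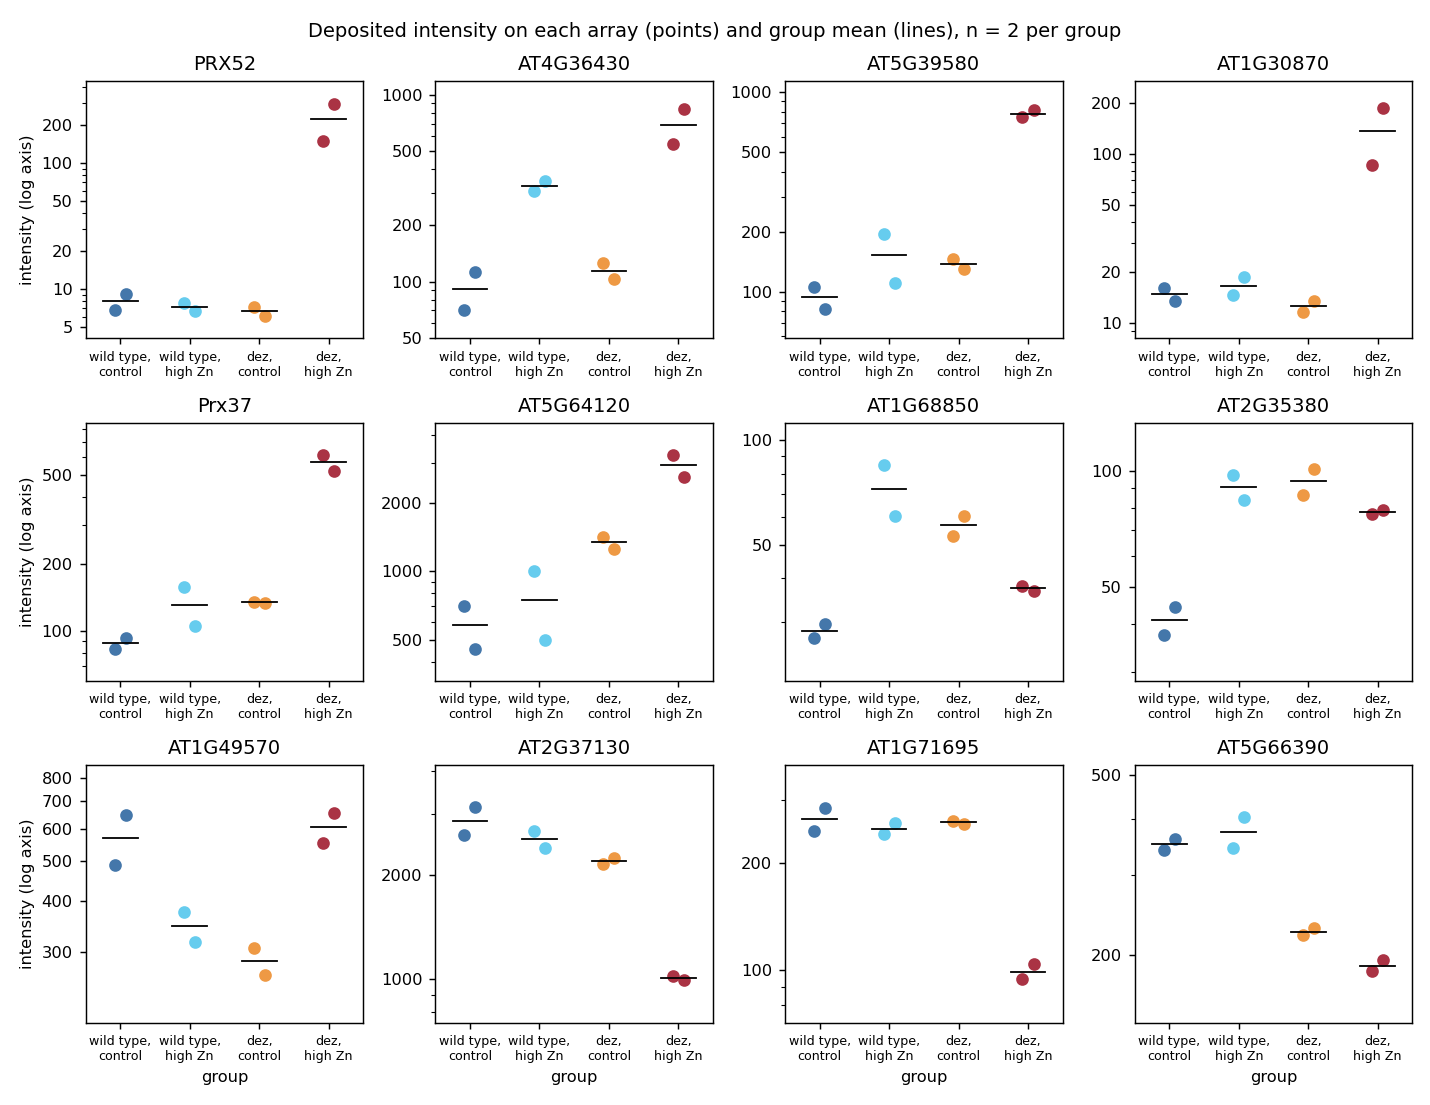
Deposited intensity of 12 peroxidase genes on each of the 8 arrays (points, log axis) by group, with the group mean as a line and 2 replicates per group. PRX52, AT5G39580, AT1G30870 and Prx37 have both dez arrays on high zinc above the other 6, AT2G37130 and AT1G71695 have them below, and AT1G68850 and AT2G35380 are lowest in control wild type.

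Zinc passed in wild type for none of the following 7 genes, all called for zinc in dez. AT1G30870 read 16.2 and 13.5 on control medium and 14.8 and 18.7 on high zinc there, and AT5G39580 read 106 and 81.8 on control medium and 194 and 110.0 on high zinc. Prx37 read 83.2 and 93.2 on control medium and 158 and 106 on high zinc, with the groups apart but the difference of 0.48 not past the threshold (limma adjusted p = 0.277). PRX71 read 703 and 455 on control medium and 1002 and 500.1 on high zinc, so that its wild-type groups overlapped. AT1G71695 read 245 and 284 on control medium and 241 and 258 on high zinc and AT2G37130 read 2606 and 3137 on control medium and 2682 and 2394 on high zinc, and both pairs of groups overlapped. AT4G08780 read 20.8 and 16.9 on control medium and 30.0 and 32.9 on high zinc, apart but with an adjusted p of 0.0852.

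The count in dez fell when a dez array was left out, and so did the share of all tested probe sets that passed. It was 14 and 16 without dez control replicate 1 and 2, and 14 and 17 without dez high-Zn replicate 1 and 2, while it was 23 without any one wild-type array and 26 with only the 4 dez arrays. Scaled to the spikes, 16 of the 34 passed, 15 higher and 1 lower, against 19 and 4 as deposited. The 1 still lower was AT1G71695. Of all tested probe sets 14.9% passed there, 88.5% of these higher, and the median over all was 0.35. With the 3'-5' covariate 15 of the 34 were higher and 3 lower, where 25.8% of all tested probe sets passed. Prx37 and AT5G39580 rose in both of these fits, with log2 differences of 1.99 and 2.68 with the covariate and 2.37 and 2.79 under spike scaling. PRX52 and AT1G30870 read 3.26 and 2.33, then 3.78 and 2.77, but they were tested only because they are high in that group.

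On control medium dez differed from wild type in 11 peroxidase genes, 6 higher and 5 lower, where 9.58% of all tested probe sets passed, 4.20% higher and 5.39% lower. The RNA controls separated these 2 groups as well. The 25S control was 7.84 and 8.52 (log2) in dez against 5.49 and 6.47 in wild type, the 3'-5' gap was 1.571 and 1.356 against 1.992 and 1.575, and the spikes were 7.28 and 7.09 against 7.43 and 7.91. Groups did not overlap for 22 of the 34, against 57.6% of all. The median log2 difference was 0.22, against 0.03 for all tested probe sets. PRX71 read 703 and 455 in wild type and 1424 and 1260 in dez. Both dez arrays were above both wild-type arrays, and the gene was higher by 1.22 ± 0.28 (log2, SE, limma adjusted p = 0.0227), the largest difference among the 34 and the only one above 1. AT2G35380 read 37.5 and 44.2 in wild type and 86.5 and 101 in dez, higher by 0.95 ± 0.12 (limma adjusted p = 0.00113). AT1G68850 was higher by 0.72 ± 0.13 (limma adjusted p = 0.00791), with 26.9 and 29.5 against 53.1 and 60.5. AT4G30170, AT2G18980 and AT4G08780 were higher by 0.52, 0.48 and 0.44. Their calls were lost in 8 of 20, 9 of 20 and 5 of 19 alternatives.

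Lower in dez on control medium were AT1G49570, PRX72, PRX25, AT1G44970 and AT4G33420. AT1G49570 read 490.0 and 649 in wild type and 307 and 264 in dez, a log2 difference of -0.95 ± 0.15 (limma adjusted p = 0.00431). PRX72 read 341 and 361 in wild type and 221 and 229 in dez, a difference of -0.60 ± 0.11 (limma adjusted p = 0.00797). In both, the 2 genotypes were clearly apart. PRX25, AT1G44970 and AT4G33420 had differences of -0.50, -0.49 and -0.44, the last of which turned to 0.027 under spike scaling.

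This count depended on single arrays. The share of all tested probe sets that passed also fell when any of the arrays compared was left out. It was 10 and 4 without wild-type control replicate 1 and 2, and 3 and 1 without dez control replicate 1 and 2, and it was 5 with the 3'-5' covariate. Under spike scaling 4 of the 34 passed and all were higher, against 6 higher and 5 lower as deposited. Of all tested probe sets 2.7% passed there, 85.1% of these higher, and the median over all was 0.40. AT2G35380 was called in each of the 20 alternatives. PRX71 lost its call without wild-type control replicate 2 and without either dez control array (limma adjusted p = 0.13, 0.121 and 0.103), and PRX72 lost it without either dez control array (0.0723 and 0.0703). AT1G49570 and AT1G68850 lost it without dez control replicate 2 (0.0562 and 0.0976).

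On high zinc, 17 peroxidase genes were higher and 7 lower in dez than in wild type, and 10 did not pass, where 42.8% of all tested probe sets passed, 22.2% higher and 20.7% lower. Of the 30 genes that did not need the dez high-zinc arrays to pass the intensity limit, 13 were higher and 7 lower. The share of the 34 that were lower, 20.6%, was thus close to that of all tested probe sets. This comparison shares its dez arrays with zinc in dez and its wild-type high-zinc arrays with zinc in wild type, so its values are not a further test of either. Groups did not overlap for 31 of the 34 genes, against 71.7% of all, and the median log2 difference was 0.38, against 0.02. Over the 30 genes the median was 0.179.

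The largest differences on high zinc were those of PRX52, at 3.29 ± 0.22 (log2, SE, limma adjusted p = 2.78e-06), and AT5G39580, at 2.29 ± 0.21 (limma adjusted p = 1.62e-05). AT5G39580 read 194 and 110.0 in wild type against 749 and 812 in dez. AT5G19890 read 98.4 and 53.2 against 335 and 444, a difference of 2.18 ± 0.28 (limma adjusted p = 0.000145). It read 276 and 283 in dez on control medium. Its dez arrays on high zinc were above all others, and its wild-type high-zinc arrays were the lowest of the 8. AT1G30870, PRX71 and Prx37 were higher by 2.15, 2.02 and 2.01. The other 11 were higher by 0.33 to 1.43, among them AT4G26010 (1.43), AT5G17820 (1.34) and AT4G36430 (1.03). The smallest, that of AT3G28200, lost its call in 10 of 20 alternatives. With the 3'-5' covariate 11 of the 34 genes were higher and 5 lower, where 25.2% of all tested probe sets passed. There AT4G26010 and AT4G36430 had 1.11 and 0.67 and did not pass (limma adjusted p = 0.066 and 0.146), and AT5G17820 passed with 0.68.

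AT2G37130 and AT1G71695 were lower in dez on high zinc, at -1.32 ± 0.11 and -1.20 ± 0.11 (limma adjusted p = 8.65e-06 and 2.01e-05). PRX72 read 344 and 404 in wild type and 184 and 195 in dez, a difference of -0.92 ± 0.11 (limma adjusted p = 0.000108). Under spike scaling these 3 differences were -0.52, -0.47 and -0.16 and passed no more. As deposited PRX72 was lower in dez on both media, while zinc passed in neither genotype. PRX25 was lower too, at -0.68 ± 0.12 (limma adjusted p = 0.00132), although zinc raised it in both genotypes. AT1G68850, AT2G34060 and AT5G40150 differed by -0.71, -0.51 and -0.47. Under spike scaling 22 of the 34 passed and all were higher, against 17 and 7 as deposited. Of all tested probe sets 56.9% passed there, 96.7% of these higher, and the median over all was 0.69. The differences of PRX25, AT2G34060 and AT5G40150 turned to 0.068, 0.052 and 0.15 under this scaling.

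The interaction is the zinc effect in dez minus that in wild type. It passed for 13 of the 34 genes, 8 positive and 5 negative, where 19.4% of all tested probe sets passed, 8.87% positive and 10.6% negative. Of the 30 genes that did not need the dez high-zinc arrays to pass the intensity limit, 6 were positive and 5 negative, with a median of 0.221 against 0.33 over the 34. PRX52 had the largest, 3.36 ± 0.31 (log2, SE, limma adjusted p = 9.49e-05), with zinc effects of -0.05 in wild type and 3.32 in dez. With a pseudocount of 64 in place of 16 its interaction was 1.98. AT1G30870 followed with 2.26 ± 0.34, AT5G39580 with 1.80 ± 0.29, AT5G19890 with 1.79 ± 0.39, AT1G49570 with 1.72 ± 0.22 and Prx37 with 1.47 ± 0.23. With 64, AT1G30870 had 1.315, below AT5G39580 with 1.639 and AT1G49570 with 1.552.

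AT1G49570 read 490.0 and 649 in control wild type, 375 and 318 in high-zinc wild type, 307 and 264 in control dez and 555 and 655 in high-zinc dez. It was thus low in both middle groups, with a zinc effect of 1.04 in dez (limma adjusted p = 5.38e-04) and one of -0.68 in wild type that did not pass. AT1G68850 was instead high in both middle groups and lowest in wild type on control medium. It rose with zinc in wild type and fell with zinc in dez, with an interaction of -1.43 ± 0.19 (limma adjusted p = 6.05e-04). It is the only one of the 34 genes called for zinc in both genotypes in opposite directions. AT2G35380 had an interaction of -1.13 ± 0.17 (limma adjusted p = 0.00126). It read 77.2 and 78.9 in dez on high zinc, between 77.2 and 101 in 3 groups, and 37.5 and 44.2 in wild type on control medium.

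**Figure D3:**
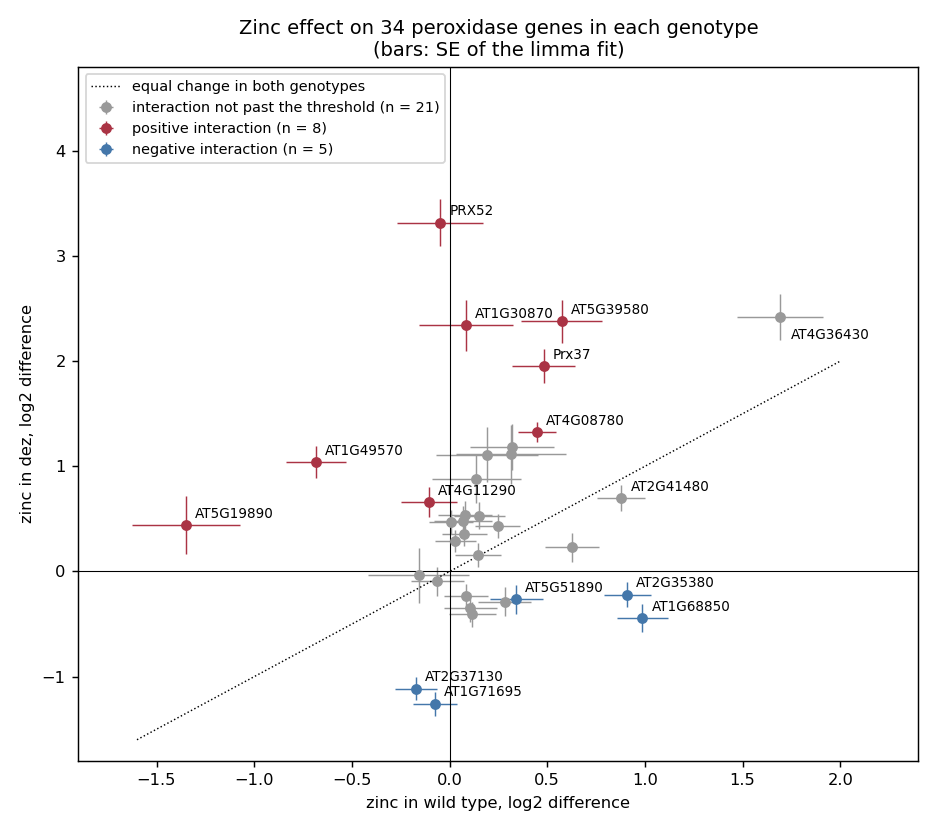
Effect of high zinc on each of the 34 peroxidase genes in wild type (horizontal axis) and in dez (vertical axis), as log2 differences with the SE of the limma fit, coloured by the call of the interaction (8 positive, 5 negative, 21 not called). PRX52 lies at -0.05 and 3.32, AT4G36430 at 1.69 and 2.42, and AT1G68850 at 0.99 and -0.44.

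AT4G36430 rose in both genotypes, and its interaction of 0.73 ± 0.31 did not pass (limma adjusted p = 0.136), which does not show that the responses were equal. Scaled to the spikes, 8 genes passed the interaction and all were positive, against 8 positive and 5 negative as deposited. Of all tested probe sets 3.99% passed there, 83.5% of these positive. That scaling moved the median interaction of all tested probe sets to 0.299, and AT1G68850, AT1G71695 and AT2G35380 had values of -1.14, -0.90 and -0.80 that no longer passed. The positive interaction of AT5G19890 was lost without dez high-Zn replicate 2 (limma adjusted p = 0.057). The negative interaction of AT5G51890, at -0.61 (limma adjusted p = 0.0498), was lost in 12 of 19 alternatives.

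Some of the 60 loci lie next to each other in the genome, in 12 adjacent pairs, of which 3 had both genes tested. Prx37 and AT4G08780 moved alike, with zinc effects in dez of 1.95 and 1.33 and differences between the genotypes on high zinc of 2.01 and 1.31. Prx37 read 83.2 and 93.2 in wild type on control medium and AT4G08780 read 20.8 and 16.9, and both genes had both dez arrays on high zinc above all others. Along the run AT5G64100, AT5G64110 and PRX71 the zinc effects in dez were 0.48, 0.53 and 1.11, and all 3 passed in the main fit. The call of AT5G64100 was lost with the 3'-5' covariate, under spike scaling and without any single dez array. Those of AT5G64110 and PRX71 were lost without dez control replicate 2 and without dez high-Zn replicate 1. With the covariate that of AT5G64110 was lost too. AT5G64100 read 744 and 933 in control wild type, 1001 and 763 in high-zinc wild type, 1094 and 1091 in control dez and 1417 and 1644 in high-zinc dez. AT5G64110 read 17.4 and 20.2 in control wild type and 20.7 and 20.7 in high-zinc wild type. In dez it read 25.9 and 21.7 on control medium and 51.2 and 33.1 on high zinc. It passed the intensity limit only through the dez high-zinc arrays, so it had to be high there. Its likeness to its neighbours in that group is thus no sign of a shared pattern. On control medium only PRX71 of the 3 passed between the genotypes, at 1.22, against 0.38 and 0.19. Related genes can share probe sequence, and although the annotation gives each of these probe sets to 1 gene, how far they read each other's transcripts was not tested.

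Smaller differences ran between the genotypes as well as with zinc. AT2G18980 read 164 and 158 in control wild type, 201 and 161 in high-zinc wild type, 226 and 234 in control dez and 371 and 310.2 in high-zinc dez. Both dez groups lay above both wild-type groups, and its highest arrays were those of dez on high zinc. AT1G44970 read 78.9 and 85.1 in control wild type, 86.0 and 88.4 in high-zinc wild type, 50.3 and 57.4 in control dez and 80.1 and 67.0 in high-zinc dez, lowest in dez on control medium. AT4G33420 read 448 and 494 in control wild type, 475 and 486 in high-zinc wild type, 340.3 and 345 in control dez and 445 and 401 in high-zinc dez, also lowest in that group. AT4G30170 read 577 and 468 in control wild type, 626 and 502 in high-zinc wild type, 726 and 779 in control dez and 563 and 614 in high-zinc dez, highest in dez on control medium. Zinc passed for AT1G44970 in dez, at 0.36 (limma adjusted p = 0.0344), and for neither AT4G33420 nor AT4G30170. AT2G34060 read 44.9 and 38.0 in control wild type, 40.1 and 52.8 in high-zinc wild type, 44.2 and 39.4 in control dez and 27.0 and 28.0 in high-zinc dez, and AT5G51890 read 136 and 128 in control wild type, 157 and 186 in high-zinc wild type, 171 and 152 in control dez and 116 and 149 in high-zinc dez. The first was lowest in dez on high zinc, and the second had its highest mean in wild type on high zinc.

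A group of 5 genes, AT2G22420, AT3G01190, AT5G14130, AT5G51890 and PRXR1, passed in none of the 4 pairwise comparisons. AT2G22420 read between 24.6 and 42.5 on the 8 arrays, with differences of 0.15 or 0.16 in all 4. AT3G01190 read between 239 and 505, with replicates 0.88 apart (log2) in wild type on control medium, the widest gap of any of the 34 in that group.

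The partners of these enzymes were hardly covered by probe sets of 1 gene. Of 20 genes of monolignol synthesis, which makes the phenolic units that peroxidases couple, 3 were tested. CCR2, a cinnamoyl-CoA reductase, rose with zinc in dez by 1.63 ± 0.13 (log2, SE, limma adjusted p = 1.26e-05), and HCT, a hydroxycinnamoyl transferase, by 1.23 ± 0.11 (limma adjusted p = 2.35e-05). ALDH2C4, the third, had a difference of -0.10. None of the 3 passed for zinc in wild type or for dez on control medium, while CCR2 and HCT were higher in dez on high zinc, by 1.20 and 1.12. Of 10 NADPH oxidases, the main source of the superoxide that becomes hydrogen peroxide in the wall, AT4G25090 was tested. It rose with zinc in dez by 0.76 ± 0.12 (limma adjusted p = 9.14e-04). It was also higher in dez on control medium, by 0.48 (limma adjusted p = 0.0356).

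Of 19 intracellular peroxidases and catalases, which remove hydrogen peroxide inside the cell, 2 ascorbate peroxidases were tested. TAPX, of the thylakoid, had a difference of -1.13 ± 0.11 with zinc in dez (limma adjusted p = 4.41e-05), while SAPX had a difference of 0.19 that did not pass. Of 9 genes of the Casparian strip, the lignified ring of the root endodermis, 2 were tested. GSO1, a receptor kinase that guards the closure of the strip, had a difference of -0.52 ± 0.11 with zinc in dez (limma adjusted p = 0.00401). AT1G61590 was lower in dez on both media, with a difference of -0.96 ± 0.13 on high zinc (limma adjusted p = 0.000236) and an adjusted p of 0.00143 on control medium. No laccase, out of 17, was tested.

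**Figure D4:**
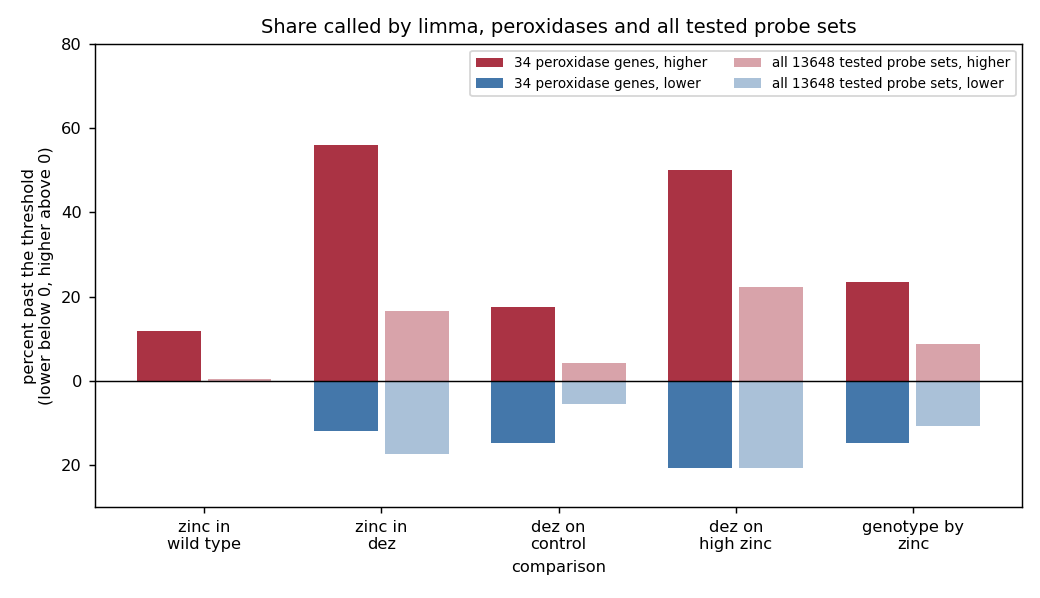
Percent of the 34 peroxidase genes (full colour) and of all 13648 tested probe sets (pale) called higher (above 0) or lower (below 0) by limma in each comparison. For zinc in dez 55.9% of the peroxidases and 16.6% of all were higher, and for dez on high zinc the lower shares were 20.6% and 20.7%. The 34 include genes that passed the intensity limit only through the dez high-zinc arrays. Of the 30 that passed without those arrays, 15 were higher for zinc in dez.

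The 9 loci below the intensity limit were dim, with intensities between 4.12 and 45.5. AT5G58390 read between 6.01 and 10.2 on 6 arrays and 45.5 and 23.4 in dez on high zinc. AT5G06730 read between 7.61 and 9.84, then 17.7 and 29.3, and AT3G49960 between 5.33 and 6.47, then 11.6 and 14.3. In these 3, as in AT1G34510, both dez arrays on high zinc lay above the other 6. AT5G15180 went the other way, with 8.71 and 9.31 in dez on high zinc and 15.3 to 27.2 elsewhere. The lowest value on any array was between 2.48 and 2.68, and no background level can be stated. AT2G39040, AT4G17690, AT5G19880 and AT5G58400 stayed between 4.49 and 24.9 on all arrays.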

How the data were processed

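The values are linear intensities as deposited, 1 for each probe set on each array. The submitters' processing notes name MAS5 without saying for which step or in which version, so the authors' scaling of the intensities is unknown here. Array upper quartiles lay between 101.9 and 105.2. Of 22810 probe sets, 64 controls were left out and the upper 60% by mean log2(intensity + 16) were tested. All 8 arrays entered 1 fit of 4 group means with limma 3.58.1 under R 4.3.3 (eBayes with a trend, 4 residual and 6.28 prior degrees of freedom), two-sided, with Benjamini-Hochberg adjustment over all 13648 probe sets per comparison and a threshold of 0.05. Genes were named through the platform's probe annotation and RefSeq (TAIR10.1). RefSeq gene coordinates were used only to find loci that lie next to each other. The members, the lists, the tests and the alternatives were chosen with earlier results of these data known. Every tested member could be named with its log2 difference. Values on all arrays were given for the 6 largest rises and falls per comparison among called members whose groups did not overlap, the 4 brightest members, calls for zinc in wild type, opposite zinc calls and adjacent genes. The fit was tested on simulated data, with 67 probe sets changed by 0.5 (log2), 67 by 1 and 66 by 2, out of 13648. In the pairwise comparisons it recovered 22.4% to 43.3% of changes of 0.5 (log2) and 83.6% to 94% of changes of 1. For the interaction these shares were 7.46% and 59.7%. A gene that did not pass may thus still have changed. In the data far more probe sets passed in some comparisons, 34.0% for zinc in dez and 42.8% for dez on high zinc. The adjusted threshold is looser there, so the simulated shares do not carry over to those comparisons. No sequences were at hand, so none is shown. Alternatives were quantile and median normalization, spike scaling, the 3'-5' covariate, pseudocounts of 1 and 64, no filter, the upper 40%, no trend, a replicate block, only the 4 arrays compared, each array left out, and the mean over a gene's probe sets. This last changes nothing, since each gene had 1.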

Additional observations from a re-analysis of the deposited data

Results flagged for a closer look

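By limma's interaction test, 13 of the 34 peroxidase genes responded to zinc differently in the 2 genotypes, against 19.4% of all tested probe sets. Among the 30 genes that passed the intensity limit without the dez high-zinc arrays, 6 were positive and 5 negative. The log2 values of the 13 (response in dez minus that in wild type) were as follows. The positive ones were PRX52 with 3.36, AT1G30870 with 2.26, AT5G39580 with 1.80, AT5G19890 with 1.79, AT1G49570 with 1.72, Prx37 with 1.47, AT4G08780 with 0.88 and AT4G11290 with 0.76. The negative ones were AT1G68850 with -1.43, AT1G71695 with -1.18, AT2G35380 with -1.13, AT2G37130 with -0.94 and AT5G51890 with -0.61. Calls of AT4G11290 and AT5G51890 were lost in 7 and 12 of 19 alternatives. AT5G39580, AT1G49570, Prx37 and AT4G08780 were called in every alternative that tested them. So were PRX52 and AT1G30870, but these passed the intensity limit only through the dez high-zinc arrays, where they are high, so this is no sign of stability.

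Below the intensity limit, 4 of 9 loci showed signal in dez on high zinc above that on every other array. Above the limit 26.9% of probe sets did so. The share among all probe sets below the limit was not computed, so these 4 have no matching background. With no filter on dim probe sets, their zinc effects in dez were 0.94 for AT5G58390, 0.67 for AT5G06730, 0.41 for AT3G49960 and 0.23 for AT1G34510 on the log2(intensity + 16) scale (limma adjusted p = 0.00121, 0.00147, 1.60e-04 and 4.52e-04). AT5G15180 went the other way, with -0.50 (limma adjusted p = 0.00625).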

How the results depend on the processing

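Counts of called peroxidase genes that changed by over 1.5 times were as follows. For zinc in wild type (4) the count was 1 under spike scaling and 1 with only the 4 arrays compared. For zinc in dez (23) it was 15 with the upper 40% of probe sets, where 23 of the 34 genes were tested. For dez on control medium (11) it was 4 under spike scaling and 5 with the 3'-5' covariate. For dez on high zinc (24) it was 15 with the upper 40%, and for the interaction (13) it was 8 under spike scaling. With each array left out the counts ranged from 4 to 5 for zinc in wild type, 14 to 23 for zinc in dez, 1 to 13 for dez on control medium, 22 to 24 for dez on high zinc and 11 to 16 for the interaction; a group left with 1 array is assumed to vary like the others. Single genes reversed only under spike scaling, where AT4G33420 turned to 0.027 for dez on control medium, and AT2G34060, PRX25 (AT2G41480) and AT5G40150 to 0.052, 0.068 and 0.15 for dez on high zinc. Over all called genes and alternatives, 1305 values kept their call, 149 kept only the direction and these 4 reversed. The 1305 include the mean over probe sets, which repeats the main fit. They also include fits without an array outside the comparison, where the log2 difference cannot change. The count is therefore no measure of robustness. With an array left out, the share of all tested probe sets called moved as well. Apart from fewer genes or arrays tested, the cause of the changes was not tested. Under spike scaling limma's prior degrees of freedom were infinite, so its p-values there rest on 1 shared spread. The sources do not state that equal spikes were added.

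With the replicate number as a block the counts were 4, 22, 11, 23 and 15 in the same order. The numbers are not stated to pair samples. Deviations of same-numbered arrays correlated between -0.363 and 0.375 over all tested probe sets across the 6 pairs of groups. The 0.375 was for the 2 groups on control medium. With 1 deviation per group, these values cannot settle whether same-numbered arrays were handled together. Dim genes are limited by the unknown background, and p-values measure the spread between 2 pooled samples per group.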
